A study of Mus musculus with 40 samples.

Results

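The comparison described here is the effect of the muscle Tsc1 knockout in mice that all received rapamycin. It sets the extensor digitorum longus (EDL), a fast hindlimb muscle, of 5 TSCmKO mice treated with rapamycin at 3 months of age (3mTSCmKO+RM) against that of 5 treated control mice (3mCON+RM). These 10 of the 40 libraries of the study were chosen by the genotype, age and treatment in their labels. TSCmKO mice lack Tsc1 in their muscle fibers because a muscle-fiber Cre cuts the floxed alleles of the strain labelled Tsc1tm1Djk/J, and the controls carry the same floxed alleles without Cre, so other cells of the muscle keep Tsc1. Per the labels, rapamycin was injected intraperitoneally at 4 mg per kg for 3 days before the muscle was taken. The study text gives another dose for the 3-day treatment at 9 months, so the dose is less certain than the schedule. The other groups used here are the vehicle-treated mice of the same age (3mCON and 3mTSCmKO) and the rapamycin-treated mice at 9 months (9mCON+RM and 9mTSCmKO+RM), with 5 mice each. Because both arms received the drug, the comparison asks which differences between the genotypes remained under acute inhibition of mTORC1.

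Tsc1 and Tsc2 form a complex that keeps the small GTPase Rheb inactive, and loss of either protein leaves the kinase complex mTORC1 switched on whatever the supply of nutrients and growth factors. Active mTORC1 promotes protein, lipid and nucleotide synthesis and restrains autophagy and lysosome formation. Rapamycin inhibits mTORC1 in part, since some of its substrates, such as the translation repressor 4E-BP1, are less sensitive to the drug than S6 kinase. In muscle, sustained mTORC1 activity is known for a late-onset myopathy and for changes at the neuromuscular junction.

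Library totals ran from 8883870 to 35224669 estimated counts in 3mCON+RM and from 16817608 to 26313907 in 3mTSCmKO+RM, so the ranges overlapped. Pairwise correlations of log2 CPM (counts scaled to a common library size, with TMM normalisation) between replicates were 0.985 to 0.994 and 0.988 to 0.993. Markers of fast muscle fibers were abundant in each library, and the summed level of 10 fiber markers was 0.987 to 1.03 times the control level whichever library was left out. The sums of all 12 marker lists, which also cover macrophages, fibroblasts, tendon, endothelium, smooth muscle, satellite cells, Schwann cells, adipocytes, red blood cells, lymphocytes and dividing cells, stood at 0.861 to 1.28 times the controls. In a two-sided exact permutation test of 5 against 5 libraries, whose smallest possible p is 0.00794, the lowest p was 0.0873, for smooth muscle and pericytes (0.861 times the controls). After adjustment over the 12 lists 1 list alone could not pass 0.05 even with fully separated groups, so the test does not show that the tissue makeup was alike. Without 1 library the fibroblast and the smooth muscle sums each reached 0.0159. The part of these sums in the results below was not tested. Among the defining markers, 1 adipocyte marker was at 0 in both groups and 1 marker of dividing cells at 0 in 3mCON+RM. The library 3mCON+RM replicate 2 held little tendon (95.7 CPM summed, against 493.9 to 706 in the other 4) and fibroblast RNA. Without it 1145 genes differed between the genotypes under rapamycin at an adjusted p below 0.05, 696 higher and 449 lower. The counts below include this library unless stated. In whole muscle, fewer cells of a type and less RNA per cell cannot be told apart.

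Tsc1 (chr2:28641228-28691167, GRCm38, plus strand) was the check on the labels. Its level was 56.3, 91.2, 94.9, 94.8 and 52.99 CPM in 3mCON+RM and 18.7, 19.1, 21.3, 23.2 and 21.9 CPM in 3mTSCmKO+RM. All 5 knockout values lay below all 5 control values, with log2 fold change -1.90 ± 0.17, adjusted p = 2.54e-10 (edgeR quasi-likelihood test, Benjamini-Hochberg adjustment over 13543 genes, ± SE). The remaining reads correspond to 0.267 of the control level, and the effect under vehicle was -1.99 ± 0.17 log2 units (difference 0.09 ± 0.24 log2 units, adjusted p = 0.929).

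Under rapamycin 1359 of the 13543 genes tested (10%) differed between the genotypes at an adjusted p below 0.05, 768 higher (5.67%) and 591 lower (4.36%) in 3mTSCmKO+RM. At least a 2-fold change was seen in 230 of the higher and 104 of the lower genes. The median over all genes was -0.01 on the log2 scale. Fitting only the 10 compared libraries called 2495 genes, 1276 of them among the 1359. In the vehicle groups, which share no library with this comparison, 2676 genes (19.8%) were called, 1549 higher (11.4%) and 1127 lower (8.32%). With upper-quartile scaling 1349 were higher and 1388 lower, so the excess of higher genes under vehicle depended on the scaling, while under rapamycin 827 were higher and 560 lower. Of the 768 genes higher under rapamycin 423 were also higher under vehicle, which is 55.1% of the first list and 27.3% of the second, and 8 were lower there. Of the 591 lower genes 306 were also lower under vehicle (51.8% and 27.2%) and 12 were higher. The genotype effects were smaller under rapamycin for most genes called under vehicle. Of those 1549 higher genes 1390 had a smaller effect under rapamycin, with a median of 0.24 against 0.63, and of the 1127 lower genes 1016 did, with medians of -0.27 and -0.59. Those genes were selected on the vehicle values, which draws the vehicle medians away from 0. Selected the other way, the genes called higher under rapamycin had medians of 0.71 under rapamycin and 0.52 under vehicle, and the lower ones -0.54 and -0.38, so neither selection shows by itself under which treatment effects were larger.

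**Figure D1:**
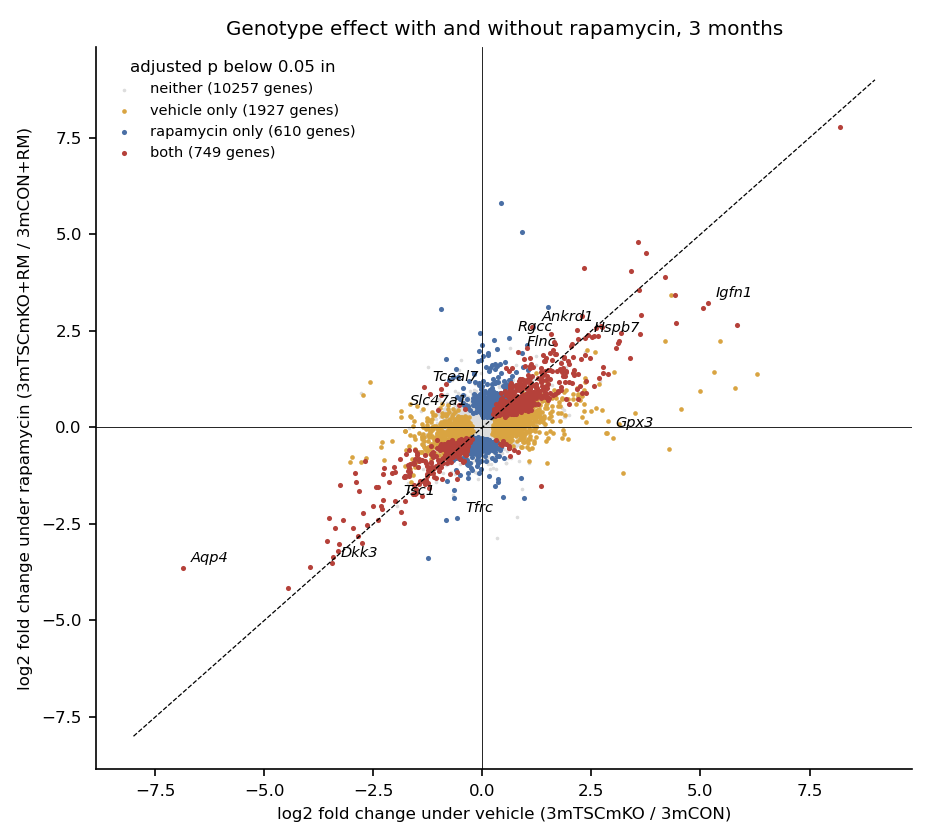
Genotype effect (log2 fold change, TSCmKO over control) of each of 13543 genes under vehicle (horizontal axis) and under rapamycin (vertical axis) at 3 months, coloured by whether its adjusted p was below 0.05 in both, in 1 or in neither comparison. Dkk3, Hspb7 and Tsc1 lie near the dashed line of equal effects, Gpx3 lies near 0 on the vertical axis, and Tfrc, Rgcc and Flnc lie further from 0 vertically than horizontally.

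The test of the difference between the 2 genotype effects, which uses all 20 libraries of this age, called 467 genes (3.45%), 184 with a higher (1.36%) and 283 with a lower value (2.09%) under rapamycin. With upper-quartile scaling these were 228 and 236, so the excess of lower values depended on the scaling. Fitting only the 4 groups of this age called 1194 genes. Of the 467 genes called with all 40 libraries fitted, the vehicle effect was the larger for 341 and the rapamycin effect for 126. Of the genes called under rapamycin and not under vehicle, 56 of 337 higher and 47 of 273 lower genes passed this test in the fit of all 40 libraries. For the others a difference between the treatments was not shown in that fit.

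Among the 24 gene lists examined, that of Z-disc, intermediate filament and strain-sensing proteins had the highest share of genes raised under rapamycin. The lists and their members were chosen with earlier results of these data known, so this ranking and its shares are no independent test. The Z-disc anchors the thin filaments of neighbouring sarcomeres, and several proteins at this site respond to stretch. Of 33 members tested 15 were higher (45.5%) and 0 lower, against 5.67% and 4.36% of all genes. Without Krt18, described below, these were 14 of 32 (43.8%). The list's median was 0.40 on the log2 scale. Under vehicle 7 members were higher and 1 lower (11.4% and 8.32% of all genes), with a median of 0.23. Of the 15, 13 did not overlap between the groups (7.12% of all genes were higher and 7.15% lower without overlap) and 13 kept their call whichever of the 10 libraries was left out. The count was 16 without 3mCON+RM replicate 2 and lowest, at 13, without 3mTSCmKO+RM replicate 4.

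Igfn1 (chr1:135953578-136006342, minus strand), an immunoglobulin-like and fibronectin domain protein of the skeletal muscle Z-disc, rose most among them. It stood at 58.7, 59.2, 53.9, 42.3 and 33.5 CPM in 3mCON+RM and 447, 371, 627, 393 and 459.8 CPM in 3mTSCmKO+RM. No library of the knockout came near the control range, and the change was 9.30-fold (log2 fold change 3.22 ± 0.39, adjusted p = 3.25e-07). Under vehicle the effect was larger (5.16 ± 0.43 log2 units, adjusted p = 2.61e-11), and the difference between treatments had an adjusted p of 0.0251. This call was lost without 3mCON replicate 3 (-1.76, adjusted p = 0.0552), 3mTSCmKO replicate 2 (-1.68, adjusted p = 0.0652) or 3mTSCmKO+RM replicate 2 (-1.88, adjusted p = 0.0527). It was also lost with no filter on low counts (-1.96, adjusted p = 0.0528) and with same-numbered libraries fitted as blocks (-1.81, adjusted p = 0.0558). One vehicle-treated knockout library, 3mTSCmKO replicate 4, held 270 CPM where the other 4 held 1399.5 to 2266.

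Filamin C, xin and the muscle ankyrin repeat proteins are recruited to strained or damaged myofibrils. Flnc, which codes for filamin C, an actin cross-linker, was 591, 562, 519, 612 and 514 CPM in 3mCON+RM and 1059.8, 1716, 2527, 3517 and 1931 CPM in 3mTSCmKO+RM. The groups did not overlap, and the knockout libraries spread more widely than the controls (log2 fold change 1.94 ± 0.28, adjusted p = 6.10e-06). Ankrd1, coding for the titin-bound stretch-response protein CARP, was 48.2, 44.0, 15.5, 21.2 and 30.5 CPM in 3mCON+RM and 47.8, 117, 354, 255 and 184 CPM in 3mTSCmKO+RM. One knockout library, replicate 1, lay within the control range and the other 4 lay above it (log2 fold change 2.59 ± 0.49, adjusted p = 3.92e-04). Xirp1, coding for xin, rose as well. It was 166, 132, 76.8, 202 and 84.0 CPM in 3mCON+RM and 212, 313, 610.3, 585 and 339 CPM in 3mTSCmKO+RM. All 5 knockout values exceeded all 5 control values (log2 fold change 1.64 ± 0.41, adjusted p = 0.00691). Under vehicle the effects were 0.82 ± 0.28 log2 units for Flnc, which passed the test, and 1.16 ± 0.47 log2 units for Ankrd1 and 0.40 ± 0.40 log2 units for Xirp1, which did not. The differences between treatments had adjusted p values of 0.112, 0.293 and 0.285, so a difference was not shown.

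The other risen members of this list covered structural and regulatory Z-disc genes. Krt18, a keratin that is sparse in healthy fibers, was called higher from a very low level. It was 0.170, 0.208, 0.112, 0.171 and 0.300 CPM in 3mCON+RM and 0.510, 1.68, 2.59, 2.32 and 2.08 CPM in 3mTSCmKO+RM. The control values lie near what 3 counts in a library amount to (0.0855 to 0.337 CPM), so no fold is given, and Krt18 is among the 15 only because all 40 libraries were fitted, since it was below the filter on low counts with the 2 compared groups alone. The thin-filament nucleators Lmod2 (1.25 ± 0.29 log2 units) and Lmod3 (0.65 ± 0.11 log2 units) and Klhl40 (0.77 ± 0.13 log2 units), a kelch protein that stabilizes Lmod3, rose together. Pdlim3 (1.24 ± 0.16 log2 units) and Ldb3 (0.50 ± 0.10 log2 units), both PDZ-LIM proteins of the Z-disc, rose, as did the intermediate filament gene Nes (1.18 ± 0.22 log2 units). Ankrd2 rose by 1.62 ± 0.40 log2 units, with knockout replicate 1 at the upper edge of the control range. Csrp3, a muscle LIM protein, rose by 1.92 ± 0.52 log2 units, but its call was lost without 3mTSCmKO+RM replicate 4 (log2 fold change 1.30, adjusted p = 0.117), which held 317 CPM where the other 4 knockout libraries held 54.0 to 137. Des, the gene of desmin, rose by 0.40 ± 0.11 log2 units, and its call was lost without 3mCON+RM replicate 1 (log2 fold change 0.36, adjusted p = 0.0529) or 3mTSCmKO+RM replicate 4 (0.33, adjusted p = 0.0751).

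Myot, which codes for the titin-interacting Z-disc protein myotilin, was among the abundant members. Its level under rapamycin was 2099, 2082, 1787, 2079 and 1979 CPM in 3mCON+RM and 3181, 3727, 3425, 3836 and 3082 CPM in 3mTSCmKO+RM. The knockout libraries all lay above the controls (log2 fold change 0.78 ± 0.12, adjusted p = 1.13e-05). Under vehicle it was 1749.8, 1931, 1753, 1851 and 1833 CPM in 3mCON and 1748, 1850.4, 1637, 2047 and 1862 CPM in 3mTSCmKO, where the groups overlapped (0.00 ± 0.12 log2 units, adjusted p = 0.988). The difference between the treatments was 0.78 ± 0.17 log2 units with an adjusted p of 0.00475, and this call was kept in all 20 fits that left out a library. Myot and Igfn1 were the only members of the 15 with a called difference between the treatments, in opposite directions, and the Igfn1 call was not kept in all fits.

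The 5 knockout libraries were not alike for this group. Of the 15 risen members 13 were lowest in 3mTSCmKO+RM replicate 1 and 10 were highest in replicate 4. At 9 months, in separate mice, 12 of the 15 were higher in the rapamycin-treated knockout, where 11.3% of all genes were.

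**Figure D2:**
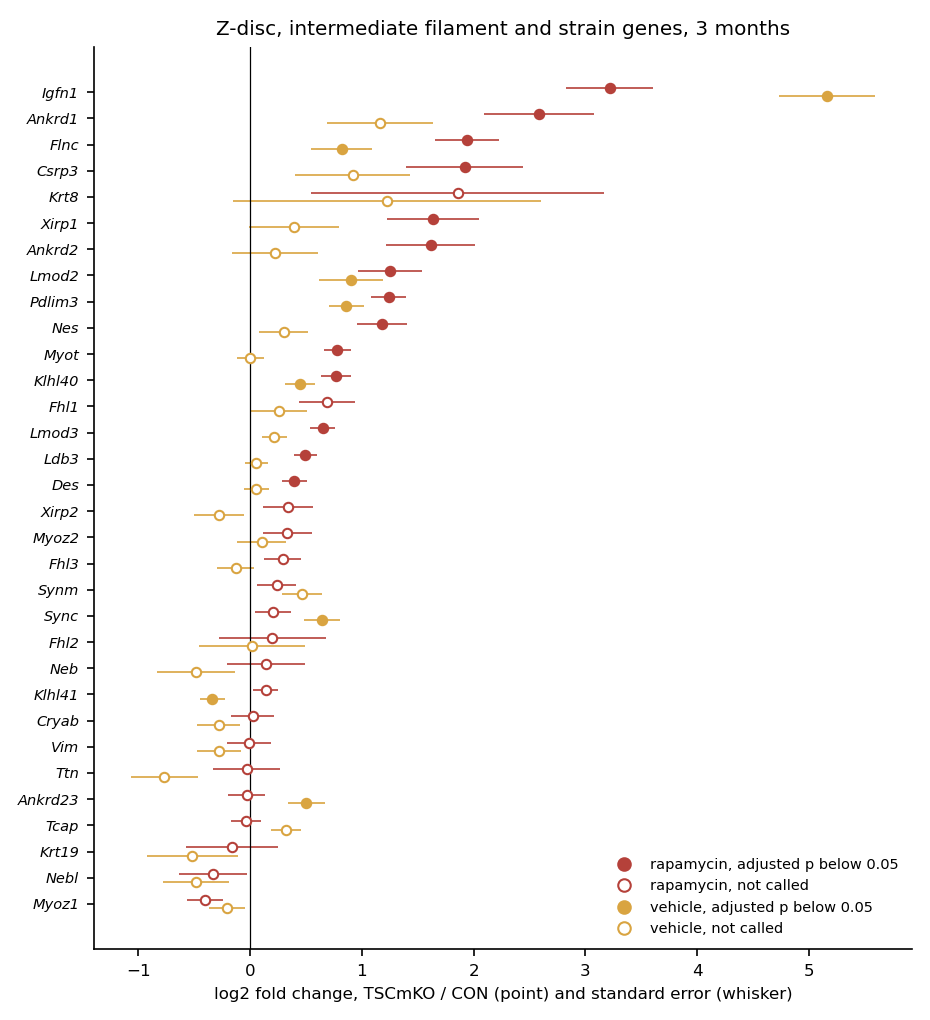
Log2 fold change between the genotypes (points) with its standard error (whiskers) for 32 of the 33 tested Z-disc, intermediate filament and strain genes (Krt18, near the count floor, is left out) under rapamycin (red) and under vehicle (yellow), filled where the adjusted p was below 0.05. Igfn1 and Ankrd1 head the list under rapamycin. The filled red points were selected on the rapamycin values, and the difference between treatments was called for 2 of the risen members, Myot and Igfn1. The Igfn1 call was lost in some other fits.

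Promoters of the risen genes were read from RefSeq (GRCm38.p6, the first start listed for each gene, 250 bases before it to 50 after) because these members moved together. Of the 15 risen members 12 had an entry. The M-CAT element CATTCCT, on either strand, was in 2 of them, Ankrd1 and Flnc (16.7%). It was in 4.11% of the tested genes with a promoter entry and in 5.28% of all 27025 promoters. A CArG box was found in 1 of the 12, Ldb3, in 1.39% of tested genes and in 1.57% of all. A MEF2 site was in 0 of the 12, in 1.97% of tested genes and in 3.26% of all. The heat shock element pair GAANNTTC was in Ankrd1, apart from its CATTCCT match (8.33% of the 12), in 5.6% of tested genes and in 7.95% of all. The Ankrd1 promoter lies at chr19:36119795-36120094 on the minus strand and the Flnc promoter at chr6:29432903-29433202 on the plus strand, with the element in capitals in each (its reverse complement in Ankrd1).
Ankrd1: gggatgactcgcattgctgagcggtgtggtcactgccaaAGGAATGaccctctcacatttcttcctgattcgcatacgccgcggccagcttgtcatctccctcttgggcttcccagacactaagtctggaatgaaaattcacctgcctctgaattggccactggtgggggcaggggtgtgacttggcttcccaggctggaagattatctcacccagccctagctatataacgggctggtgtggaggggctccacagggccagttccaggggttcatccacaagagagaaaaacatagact
Flnc: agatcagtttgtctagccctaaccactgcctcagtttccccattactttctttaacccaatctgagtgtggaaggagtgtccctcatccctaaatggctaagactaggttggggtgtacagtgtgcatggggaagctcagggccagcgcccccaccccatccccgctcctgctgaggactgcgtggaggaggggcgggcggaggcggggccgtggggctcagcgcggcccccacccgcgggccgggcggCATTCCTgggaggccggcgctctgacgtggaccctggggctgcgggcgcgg

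In the list of endoplasmic reticulum chaperones, unfolded protein response and heat shock proteins, 4 of 37 members were higher (10.8%, beside 5.67% of all genes) and 0 lower, and these 4 were Hspb7, Hspb1, Hspb6 and Bag3. The first 3 are small heat shock proteins, a class that binds unfolding proteins and the cytoskeleton, and Hspb8 (0.28 ± 0.12 log2 units, adjusted p = 0.165) and Cryab (0.02 ± 0.19 log2 units, adjusted p = 0.974), also of this class and in the list, were not called. Under vehicle 12 members of this list were higher and 3 lower (11.4% and 8.32% of all genes). The median under rapamycin was 0.02.

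Hspb7 (chr4:141420779-141425311, plus strand), a small heat shock protein of heart and muscle, was 294, 365, 296, 250.1 and 215 CPM in 3mCON+RM and 669, 1115, 1236, 2492 and 1541 CPM in 3mTSCmKO+RM. The groups did not overlap (log2 fold change 2.31 ± 0.26, adjusted p = 6.47e-08), and the vehicle effect was 2.36 ± 0.26 log2 units (difference -0.05 ± 0.36 log2 units, adjusted p = 0.982). Hspb1, coding for HSP27, was 71.8, 67.1, 52.4, 62.8 and 52.0 CPM in 3mCON+RM and 134, 251.4, 263, 388 and 236 CPM in 3mTSCmKO+RM. It was higher in all 5 knockout libraries (log2 fold change 2.06 ± 0.25, adjusted p = 1.72e-07), with a vehicle effect of 1.02 ± 0.24 log2 units and a difference of 1.04 ± 0.34 log2 units, adjusted p = 0.0825. Knockout replicate 1 was lowest and replicate 4 highest for both genes, as for the Z-disc genes. Hspb6, coding for HSP20, rose from 1490.3 ± 234 to 2655 ± 436 CPM (mean ± SD, n = 5, log2 fold change 0.83 ± 0.17, adjusted p = 8.30e-04), whereas its vehicle effect was -0.17 ± 0.17 log2 units, adjusted p = 0.538, and the difference was called (1.0 ± 0.24 log2 units, adjusted p = 0.0126). Bag3, a co-chaperone that pairs with small heat shock proteins at the Z-disc, rose by 0.44 ± 0.12 log2 units, and its call was lost without 3mCON+RM replicate 3 (0.39, adjusted p = 0.0597) or 3mTSCmKO+RM replicate 3 (0.37, adjusted p = 0.0664).

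A pair of chaperones outside the list was chosen after the values were seen. Hspa1l, an HSP70 family member that shares sequence with its neighbouring paralogs so that reads may be divided among them, was 43.4, 37.9, 31.5, 36.5 and 33.4 CPM in 3mCON+RM and 59.8, 77.5, 98.8, 78.9 and 70.8 CPM in 3mTSCmKO+RM. All knockout values were above the controls (log2 fold change 1.08 ± 0.15, adjusted p = 3.14e-06). Under vehicle the effect was -0.01 ± 0.15 log2 units, adjusted p = 0.973, with a difference of 1.09 ± 0.21 log2 units, adjusted p = 0.00197. Dnaja4, an HSP40 co-chaperone, rose by 0.94 ± 0.15 log2 units (adjusted p = 1.90e-05), with a vehicle effect of 0.05 ± 0.15 log2 units and a difference of 0.89 ± 0.21 log2 units, adjusted p = 0.00981.

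The promoters of Hspb1 and Bag3 are shown because both hold the letters GAANNTTC, which were in 2 of the 4 risen heat shock members. These letters were in 5.6% of the tested genes with a promoter entry and in 7.95% of all promoters. The Bag3 match begins at base 43 after the listed start. Hspb1 also holds CATTCCT, as 1 of the 4. The Hspb1 promoter lies at chr5:135887669-135887968 and the Bag3 promoter at chr7:128523333-128523632, both on the plus strand, with the GAANNTTC matches in capitals.
Hspb1: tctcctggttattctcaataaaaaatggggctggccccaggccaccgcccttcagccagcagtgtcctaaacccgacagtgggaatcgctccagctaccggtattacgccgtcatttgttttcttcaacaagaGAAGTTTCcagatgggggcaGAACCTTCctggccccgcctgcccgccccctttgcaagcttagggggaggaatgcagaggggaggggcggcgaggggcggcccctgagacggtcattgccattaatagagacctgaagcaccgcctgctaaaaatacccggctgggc
Bag3: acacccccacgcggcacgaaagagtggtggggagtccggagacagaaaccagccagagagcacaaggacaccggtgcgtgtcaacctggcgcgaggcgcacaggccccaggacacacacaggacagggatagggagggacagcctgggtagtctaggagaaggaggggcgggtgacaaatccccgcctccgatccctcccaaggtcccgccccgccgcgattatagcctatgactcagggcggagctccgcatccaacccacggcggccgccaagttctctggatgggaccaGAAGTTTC

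Isoforms of slow, cardiac or developing muscle were partly raised. Of 38 myosin, troponin and other fiber type genes 6 were higher (15.8%, beside 5.67% of all genes) and 0 lower, and all 6 kept the call whichever library was left out. Under vehicle 5 were higher and 3 lower (11.4% and 8.32% of all genes). Atp2a2, coding for the slow and cardiac calcium pump SERCA2, was 58.9, 35.2, 71.9, 63.4 and 48.8 CPM in 3mCON+RM and 247, 215, 75.4, 210.4 and 163 CPM in 3mTSCmKO+RM. Knockout replicate 3 stood just above the highest control and the other 4 stood well above (log2 fold change 1.71 ± 0.33, adjusted p = 4.53e-04). Myl2, the slow regulatory light chain, rose by 2.12 ± 0.46 log2 units and Actc1, cardiac actin, by 2.20 ± 0.50 log2 units, each with overlapping groups. Myl4, the embryonic and atrial light chain, rose from 11.3 ± 0.380 to 29.6 ± 4.05 CPM (log2 fold change 1.39 ± 0.25, adjusted p = 1.87e-04), less than under vehicle (2.88 ± 0.26 log2 units, difference -1.49 ± 0.35 log2 units, adjusted p = 0.0106). Mybpc1, the slow myosin-binding protein C, rose from 4184 ± 230.0 to 7289 ± 768 CPM (log2 fold change 0.80 ± 0.17, adjusted p = 9.93e-04), while under vehicle it was -0.10 ± 0.17 log2 units, adjusted p = 0.725. The difference between treatments for Mybpc1 (0.90 ± 0.24 log2 units, adjusted p = 0.0222) was lost without 3mCON replicate 1 (0.81, adjusted p = 0.0599). Actn2, a Z-disc actinin, rose by 0.80 ± 0.18 log2 units.

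The myosin heavy chain genes themselves did not pass the test. Fast Myh4 was 53512 ± 3799 CPM in 3mCON+RM and 61483 ± 9842 CPM in 3mTSCmKO+RM (0.20 ± 0.21, adjusted p = 0.674), and slow Myh7 was 61.7 ± 16.6 and 126 ± 86.6 CPM (1.04 ± 0.50, adjusted p = 0.221). Myh2 was 200 ± 22.2 and 276 ± 60.6 CPM (0.47 ± 0.36, adjusted p = 0.524), with all knockout values above all controls. For Myh1 the groups overlapped (0.22 ± 0.21, adjusted p = 0.639), as they did for Myh4 and Myh7. The slow troponins Tnni1 (1.01 ± 0.57) and Tnnt1 (0.96 ± 0.52) did not pass either.

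**Figure D3:**
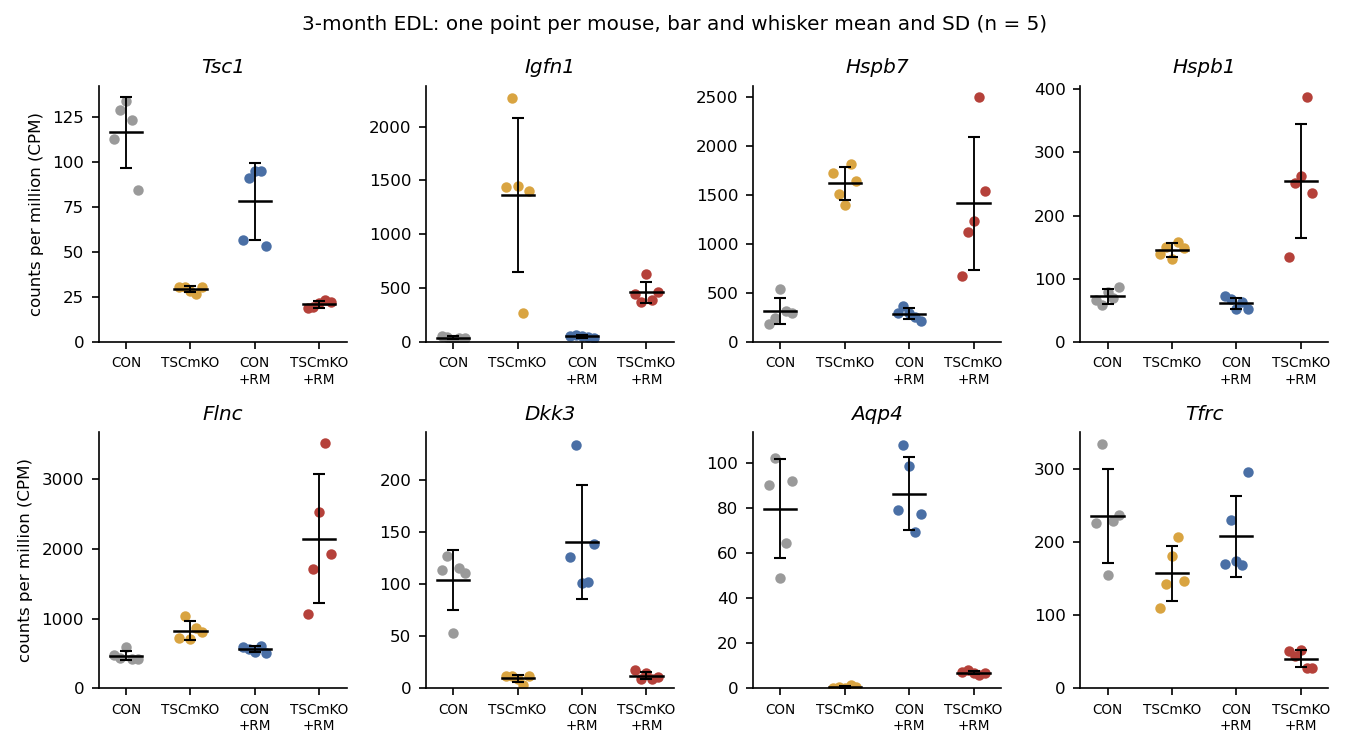
Level (CPM, linear axes from 0) of 8 genes in each of the 20 mice aged 3 months, by genotype and treatment, with the mean and SD of each group of 5. Hspb7, Dkk3 and Tsc1 differ between genotypes with and without rapamycin, Aqp4 is above its vehicle level in 3mTSCmKO+RM and below the controls, and Tfrc is low in 3mTSCmKO+RM.

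Components of the TSC and mTORC1 pathway and its nutrient sensors moved in both directions, with 3 of 38 members higher and 6 lower (23.7% called against 10% of all genes, Tsc1 among the lower). Deptor, which codes for an mTOR-binding inhibitor, was 174, 204, 213, 162 and 197 CPM in 3mCON+RM and 89.8, 90.8, 80.8, 79.8 and 69.0 CPM in 3mTSCmKO+RM. Every knockout library lay below every control (log2 fold change -1.21 ± 0.21, adjusted p = 7.02e-05), as under vehicle (-1.27 ± 0.21 log2 units). Sesn3, a member of the sestrin family of stress-induced mTORC1 inhibitors, was 35.4, 23.4, 35.3, 28.6 and 31.9 CPM in 3mCON+RM and 64.3, 66.6, 79.2, 59.7 and 50.8 CPM in 3mTSCmKO+RM. The groups were apart (log2 fold change 1.06 ± 0.20, adjusted p = 3.51e-04), and the vehicle effect was 1.81 ± 0.20 log2 units (difference -0.76 ± 0.28 log2 units, adjusted p = 0.148). Rps6kb1, coding for S6 kinase 1, fell from 66.9 ± 4.88 to 48.4 ± 2.64 CPM (log2 fold change -0.47 ± 0.09, adjusted p = 3.68e-04), and Flcn, the folliculin gene that acts on Rag GTPases, fell by 0.64 ± 0.13 log2 units. Eif4b, a translation factor phosphorylated by S6 kinase, fell from 711 ± 54.0 to 533 ± 14.6 CPM (log2 fold change -0.42 ± 0.11, adjusted p = 0.00686). Eif4ebp1, which codes for 4E-BP1, rose by 0.66 ± 0.18 log2 units, but its call was lost without 3mTSCmKO+RM replicate 4 (0.40, adjusted p = 0.158) and when only the 2 compared groups were fitted (adjusted p = 0.0803).

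Downstream of insulin, Akt2, the main Akt isoform of glucose uptake, was 350.4, 369, 365, 327 and 297 CPM in 3mCON+RM and 226, 237, 212, 208 and 212 CPM in 3mTSCmKO+RM. The groups did not overlap (log2 fold change -0.64 ± 0.10, adjusted p = 9.97e-06). Under vehicle the effect was -0.14 ± 0.10 log2 units, adjusted p = 0.333, and the difference (-0.50 ± 0.14 log2 units, adjusted p = 0.0297) was lost in 10 of the 20 fits that left out a library, with adjusted p values up to 0.0695, reached without 3mCON replicate 1, and with no filter on low counts (adjusted p = 0.0918). Of 28 insulin, IGF and FoxO genes 1 was higher and 2 lower (10.7%, near the 10% of all genes), but 8 were higher and 1 lower when only the compared groups were fitted. Igfbp5, which binds IGF, fell by 0.79 ± 0.18 log2 units, with an adjusted p of 0.0517 when only the compared groups were fitted. Among translation factors 3 of 46 were higher and 5 lower (17.4%, beside 10% of all genes). These were 0 and 3 with no filter on low counts and 6 and 13 when only the compared groups were fitted. The lower ones included Eef2, the elongation factor that moves the ribosome (log2 fold change -0.45 ± 0.11, adjusted p = 0.00504), and Eif4g2 (log2 fold change -0.43 ± 0.12, adjusted p = 0.0131). Of 49 ribosome biogenesis factors 1 was higher and 0 lower (2.04%, below the 10% of all genes).

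Tfrc (chr16:32608920-32632794, plus strand), the transferrin receptor that brings iron into the cell, was among the 12 largest falls. Its level was 171, 230.2, 175, 169 and 296 CPM in 3mCON+RM and 50.9, 44.7, 52.0, 28.1 and 27.4 CPM in 3mTSCmKO+RM. All 5 knockout libraries were far below the lowest control, and the change was -2.36 ± 0.25 log2 units with an adjusted p of 9.76e-09. Under vehicle Tfrc was 226, 335, 155, 229 and 238 CPM in 3mCON and 109.7, 143, 181, 207 and 146 CPM in 3mTSCmKO. Those groups overlapped (-0.59 ± 0.23 log2 units, adjusted p = 0.0738), and the difference between treatments was -1.77 ± 0.33 log2 units (adjusted p = 0.00122), kept in all 20 fits without a library. At 9 months the fall under rapamycin was -2.44 ± 0.25 log2 units. Slc11a2, the transporter DMT1 that releases iron from endosomes, chosen after its values were seen, fell by 0.43 ± 0.11 log2 units (adjusted p = 0.00813).

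Polyamine genes were split. Among 39 genes of pentose phosphate, nucleotide and polyamine synthesis 5 were higher and 6 lower (28.2% called, beside 10% of all genes). Of these 2 of the higher and 4 of the lower genes kept the call whichever library was left out, and the higher count was lowest, at 2, without 3mCON+RM replicate 1, 3 or 4 or 3mTSCmKO+RM replicate 2. Smox, which codes for spermine oxidase, was 176, 144, 97.5, 92.8 and 198 CPM in 3mCON+RM and 61.8, 56.0, 62.3, 29.0 and 51.6 CPM in 3mTSCmKO+RM. The groups were apart (log2 fold change -1.44 ± 0.22, adjusted p = 1.01e-05), as under vehicle (-1.25 ± 0.22 log2 units). Amd1, coding for the S-adenosylmethionine decarboxylase that feeds spermidine and spermine synthesis, was 445, 517, 400.3, 386 and 709 CPM in 3mCON+RM and 257, 173, 211, 129.6 and 199.6 CPM in 3mTSCmKO+RM. The knockout libraries lay below all controls (log2 fold change -1.34 ± 0.27, adjusted p = 5.34e-04), whereas under vehicle the effect was 0.36 ± 0.26 log2 units, adjusted p = 0.362, and the difference was -1.70 ± 0.37 log2 units, adjusted p = 0.00538. Amd1 has a near-identical copy, so the division of its reads is uncertain. Azin1, the antizyme inhibitor that protects ornithine decarboxylase, rose from 40.7 ± 1.08 to 63.3 ± 14.7 CPM (log2 fold change 0.64 ± 0.16, adjusted p = 0.00594). In nucleotide synthesis Prps1 (-0.56 ± 0.13 log2 units) and Rrm1 (-0.46 ± 0.12 log2 units) fell and Ctps2 (0.65 ± 0.13 log2 units) rose.

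Denervation-response genes were called in both directions. Of 22 denervation-response regulators and targets 3 were higher and 5 lower (36.4%, beside 10% of all genes). Dkk3 (chr7:112116017-112159057, minus strand), a secreted Dickkopf family protein, was 126, 235, 101, 102 and 138 CPM in 3mCON+RM and 17.4, 9.41, 14.4, 9.15 and 11.3 CPM in 3mTSCmKO+RM. The highest knockout value was far below the lowest control (log2 fold change -3.51 ± 0.29, adjusted p = 4.25e-11), and the vehicle effect was -3.45 ± 0.29 log2 units (difference -0.06 ± 0.38 log2 units, adjusted p = 0.976). Cntfr, the receptor subunit for ciliary neurotrophic factor, was 132, 249.4, 176, 205 and 96.5 CPM in 3mCON+RM and 27.9, 45.3, 45.9, 23.2 and 25.1 CPM in 3mTSCmKO+RM. It too was lower in all 5 knockout libraries (log2 fold change -2.36 ± 0.33, adjusted p = 3.54e-06). Mef2a, a muscle transcription factor, fell by 0.43 ± 0.11 log2 units and Hdac9, a repressor of MEF2, rose by 1.04 ± 0.25 log2 units, with overlapping groups for Hdac9, whose adjusted p was 0.0502 when only the compared groups were fitted. Nes and Ankrd1, described above, complete the 3 higher members. Among 22 genes of the acetylcholine receptor and neuromuscular junction 3 were higher and 3 lower (5.67% and 4.36% of all genes), and none of these 6 kept its call in all 10 fits without a library.

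Ubiquitin ligases of muscle atrophy that were raised under vehicle did not pass the test in the treated mice. In the list of atrophy ligases and p53, Gadd45 and metallothionein genes 2 of 22 members were higher and 2 lower under rapamycin (18.2%), against 9 higher under vehicle, where more genes were called overall (19.8% against 10%). Fbxo32, which codes for atrogin-1, was 389, 775, 732, 439 and 431 CPM in 3mCON+RM and 534, 430.4, 614, 242 and 409 CPM in 3mTSCmKO+RM. The groups overlapped (log2 fold change -0.31 ± 0.23, adjusted p = 0.492). In the vehicle groups Fbxo32 was 698, 427, 647, 487 and 485 CPM in 3mCON and 1352, 1396, 856, 951 and 1118 CPM in 3mTSCmKO. There every knockout value exceeded every control (1.05 ± 0.23 log2 units, adjusted p = 8.85e-04), and the difference was -1.36 ± 0.33 log2 units, adjusted p = 0.0121. For Trim63, coding for MuRF1, the effect was -0.08 ± 0.26 log2 units under rapamycin and 1.55 ± 0.26 log2 units under vehicle (difference -1.63 ± 0.36 log2 units, adjusted p = 0.00655). Its sign under rapamycin turned without 3mCON+RM replicate 2 (0.14) or 3mTSCmKO+RM replicate 5 (0.022). For Sesn1, a p53 target, the effects were 0.17 ± 0.19 log2 units and 1.24 ± 0.19 log2 units (difference -1.07 ± 0.26 log2 units, adjusted p = 0.0141). The difference test called 6 members of this list, all with a lower value under rapamycin (2.09% of all genes). Usp14, a proteasome-bound deubiquitinase, rose by 0.63 ± 0.12 log2 units (adjusted p = 3.54e-04).

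Of 37 proteasome subunits 5 were higher and 0 lower (13.5%, beside 5.67% of all genes higher), with a list median of 0.24 on the log2 scale. The count depended on the fit, with 19 higher when only the compared groups were fitted and 3 with no filter on low counts. Psmd8 (log2 fold change 0.65 ± 0.13, adjusted p = 3.59e-04), Psmd11 (log2 fold change 0.59 ± 0.11, adjusted p = 2.53e-04) and Psmd3 (log2 fold change 0.48 ± 0.10, adjusted p = 0.00126), all of the regulatory particle, kept the call whichever library was left out. Of 55 autophagy and lysosome genes 7 were higher and 1 lower (14.5%), against 20 higher under vehicle, where 11.4% of all genes were higher in place of 5.67%. The cathepsins Ctsb, from 377 ± 20.3 to 539 ± 45.1 CPM (0.52 ± 0.11 log2 units), and Ctsd, from 502 ± 61.9 to 747 ± 86.7 CPM (0.57 ± 0.12 log2 units), and the lysosomal hydrolase Hexa (0.46 ± 0.12 log2 units) were among them, without overlap between groups.

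ATF4, a transcription factor that mTORC1 activates, drives amino acid transport and one-carbon genes. Of 34 genes of this list 6 were higher and 2 lower (23.5%), beside 5.67% and 4.36% of all genes, and 3 of the higher ones kept the call in all 10 fits. Under vehicle 13 were higher and 4 lower, where 11.4% and 8.32% of all genes were called. Mthfd2, the mitochondrial folate enzyme, was 2.04, 2.22, 1.24, 3.22 and 5.06 CPM in 3mCON+RM and 7.74, 5.38, 5.50, 9.97 and 6.64 CPM in 3mTSCmKO+RM. The groups were apart by a narrow margin (log2 fold change 1.27 ± 0.24, adjusted p = 2.56e-04). Under vehicle it was 2.68 ± 0.23 log2 units, and the call of the difference (-1.41 ± 0.33 log2 units, adjusted p = 0.00911) was lost without 3mCON+RM replicate 5 (-1.08, adjusted p = 0.0521). The amino acid transporters Slc7a5 (0.92 ± 0.21 log2 units) and Slc6a9 (0.91 ± 0.20 log2 units) rose with overlapping groups. Of 20 aminoacyl-tRNA synthetases 2 were higher (5.67% of all genes), Vars (log2 fold change 0.62 ± 0.12, adjusted p = 5.34e-04) and Sars (log2 fold change 0.36 ± 0.09, adjusted p = 0.00491). In cholesterol and fatty acid synthesis 3 of 35 were higher and 1 lower (11.4%, near the 10% of all genes). The higher count fell to 1 without 3mCON+RM replicate 1 or 3 or without 3mTSCmKO+RM replicate 5. Cyp51, a sterol demethylase, rose (log2 fold change 0.84 ± 0.13, adjusted p = 2.04e-05), while Sc5d, a sterol desaturase, fell (log2 fold change -0.36 ± 0.10, adjusted p = 0.0105) although it rose under vehicle (0.47 ± 0.10 log2 units, adjusted p = 2.79e-04, difference -0.83 ± 0.14 log2 units, adjusted p = 1.62e-04).

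None of 76 genes of NADH dehydrogenase, cytochrome and ATP synthase subunits passed in either direction, beside 10% of all genes, with a median of -0.15 on the log2 scale. Under vehicle 4 were lower, where 8.32% of all genes were. Under rapamycin 9 of the 76 were lower without overlap between the groups, beside 7.15% of all genes. At an unadjusted p below 0.05 there were 7 of the 76, DESeq2 called 0, and 12 were lower when only the compared groups were fitted. Of 44 tricarboxylic acid cycle and fatty acid oxidation genes 0 were higher and 2 lower (4.55%, near the 4.36% of all genes), including Idh3a, a subunit of isocitrate dehydrogenase (log2 fold change -0.49 ± 0.12, adjusted p = 0.00426). Of 36 glycolysis and glycogen genes 0 were higher and 5 lower (13.9%, beside 4.36% of all genes lower), and 2 of these kept the call whichever library was left out. When only the compared groups were fitted 10 were lower, and the list's median was -0.16. Fbp2, muscle fructose bisphosphatase, was 27.3, 36.4, 43.5, 28.5 and 22.9 CPM in 3mCON+RM and 12.2, 12.2, 9.81, 22.2 and 12.1 CPM in 3mTSCmKO+RM. Knockout replicate 4 stood above the other knockout libraries, just under the lowest control (log2 fold change -1.20 ± 0.28, adjusted p = 0.00355). Phkg1, the catalytic subunit of phosphorylase kinase, fell from 509.7 ± 35.2 to 336 ± 36.1 CPM (log2 fold change -0.60 ± 0.11, adjusted p = 2.28e-04).

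**Figure D4:**
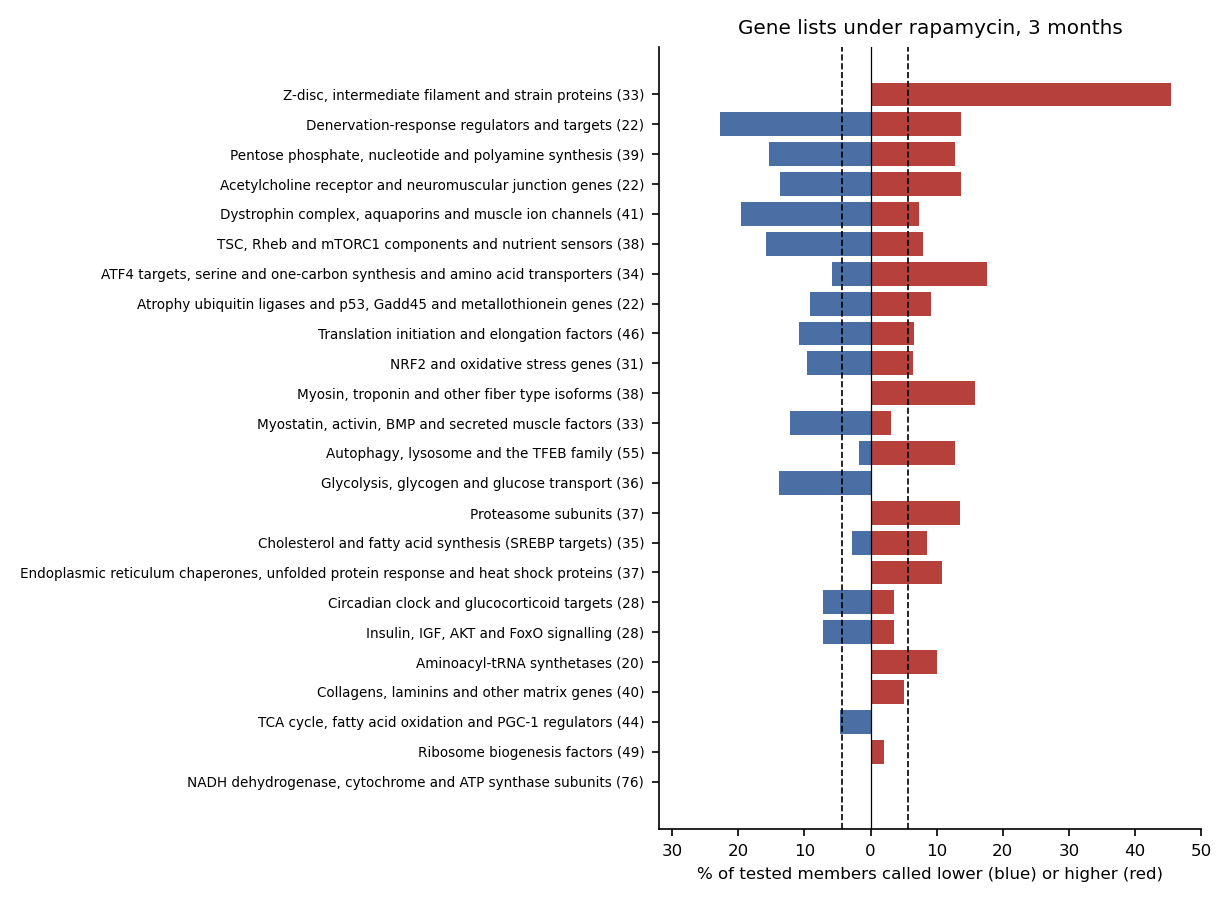
Share of the tested members of each of 24 gene lists that was called lower (blue, to the left) or higher (red, to the right) in 3mTSCmKO+RM than in 3mCON+RM, with the number of tested members in brackets and dashed lines at the shares of all genes (4.36% and 5.67%). The Z-disc list reaches 45.5% on the higher side. The lists were chosen with earlier results of these data known.

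These list counts moved with the fit, since fitting only the 10 compared libraries raised the calls over all genes to 1353 higher and 1142 lower. The Z-disc list then had 15 higher and 1 lower, and the ATF4 list 6 and 2. The fiber type list had 10 higher and 4 lower, the mTORC1 list 6 and 8, the polyamine and nucleotide list 8 and 8, the autophagy and lysosome list 11 and 1, and the chaperone list 5 and 2. Of the smaller counts, the tricarboxylic acid cycle list had 3 higher and 4 lower, ribosome biogenesis 5 and 1, cholesterol synthesis 3 and 4, aminoacyl-tRNA synthetases 3 and 1, the matrix list 4 and 0, the myostatin list 1 and 8 and the oxidative stress list 5 and 4. Calls that were kept whichever library was left out numbered 1 of 3 higher and 5 of 6 lower in the mTORC1 list, 3 of 3 and 3 of 5 in the denervation list, 4 of 7 and 0 of 1 in the autophagy and lysosome list, 0 of 3 and 3 of 5 among translation factors, and 1 of 2 and 1 of 2 in the atrophy list. With no filter on low counts, which left 1085 calls over all genes, the neuromuscular junction list had 1 higher and 1 lower, the polyamine and nucleotide list 3 and 4, the glycolysis list 0 and 2, and the clock list 1 and 0.

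Of 41 dystrophin complex, aquaporin and ion channel genes 8 were lower and 3 higher (26.8% called, beside 10% of all genes). Aqp4, the water channel of the fiber membrane, was 78.9, 108, 98.3, 69.1 and 77.3 CPM in 3mCON+RM and 7.23, 8.02, 6.63, 6.08 and 6.64 CPM in 3mTSCmKO+RM. The highest knockout value was far below the lowest control (log2 fold change -3.64 ± 0.24, adjusted p = 1.08e-13). Under vehicle it was 90.1, 102, 49.1, 64.6 and 92 CPM in 3mCON and 0.198, 0.457, 0.257, 1.31 and 0.756 CPM in 3mTSCmKO. All 5 of these knockout values were far below the controls, but the lowest was at the level of 3 counts in its library (0.198 CPM), so the fitted sizes of the vehicle effect (-6.87 ± 0.30 log2 units) and of the difference (3.23 ± 0.37 log2 units, adjusted p = 3.32e-07) are imprecise. The level in the knockout under rapamycin was above that under vehicle in all libraries. Kcnn3, a calcium-activated potassium channel, was 5.69, 7.69, 7.64, 6.01 and 6.22 CPM in 3mCON+RM and 21.4, 17.0, 17.1, 35.6 and 23.7 CPM in 3mTSCmKO+RM. All knockout values exceeded the controls (log2 fold change 1.80 ± 0.21, adjusted p = 1.58e-07). Atp1b2, a subunit of the sodium pump, rose by 0.81 ± 0.15 log2 units, and Stac3, which couples the calcium channel to contraction, fell by 0.47 ± 0.11 log2 units, with groups apart for both. Only 2 of the 8 lower members kept the call in all 10 fits, Aqp4 and Stac3.

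Among secreted factors and their receptors, 1 of 33 members of the myostatin, activin and BMP list was higher and 4 lower (15.2%, beside 10% of all genes). Bmpr1b, a BMP receptor, fell from 10.5 ± 1.29 to 3.91 ± 1.64 CPM (log2 fold change -1.41 ± 0.27, adjusted p = 4.26e-04), and Dkk3 belongs to this list as well. In the list of NRF2 and oxidative stress genes 2 of 31 were higher and 3 lower (16.1%, beside the same 10%), and Sod2, mitochondrial superoxide dismutase, fell by 0.46 ± 0.11 log2 units. Of 28 clock and glucocorticoid genes 1 was higher and 2 lower (10.7%), and of 40 collagens and other matrix genes 2 were higher and 0 lower, shares near or below that of all genes. None of these 5 kept its call in all 10 fits.

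The 12 largest rises among genes with groups apart and a mean of at least 5 CPM included further genes. Rasd2, a Ras-family GTPase that binds mTOR, was 3.31, 6.37, 5.51, 3.73 and 4.97 CPM in 3mCON+RM and 50.02, 46.5, 44.3, 27.4 and 32.1 CPM in 3mTSCmKO+RM. It was raised in each knockout library (log2 fold change 3.08 ± 0.36, adjusted p = 1.72e-07) but less than under vehicle (5.06 ± 0.38 log2 units, difference -1.98 ± 0.48 log2 units, adjusted p = 0.0142). Panx1, a membrane channel for ATP, rose from 4.03 ± 1.13 to 23.3 ± 6.44 CPM (log2 fold change 2.51 ± 0.21, adjusted p = 5.54e-11). Tnfrsf12a, the receptor of the cytokine TWEAK, rose from 6.27 ± 2.68 to 33.3 ± 9.89 CPM (log2 fold change 2.39 ± 0.40, adjusted p = 7.68e-05), and Snph, a mitochondrial anchoring protein known from axons, from 2.98 ± 0.582 to 18.4 ± 2.12 CPM (log2 fold change 2.63 ± 0.20, adjusted p = 2.34e-12). Hectd2os, an antisense transcript, rose by 2.91 ± 0.23 log2 units. Gm26870 rose by 7.79 ± 0.55 log2 units and B230312C02Rik by 3.43 ± 0.36 log2 units, both long noncoding RNAs. Gm26870 lies at chr9:3000282-3038313, minus strand, at the start of the assembled chromosome, and whether its reads are unique to it was not tested.

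Further falls among the 12 largest were those of Pak1, a kinase downstream of Rac and Cdc42 (log2 fold change -2.60 ± 0.23, adjusted p = 2.32e-10), Neto2, an auxiliary subunit of glutamate receptors (log2 fold change -2.47 ± 0.35, adjusted p = 4.34e-06), Adcy1, an adenylyl cyclase (log2 fold change -1.91 ± 0.32, adjusted p = 5.60e-05), Glb1l2 (log2 fold change -2.13 ± 0.39, adjusted p = 2.25e-04), and the transcription factor gene Cux2 (log2 fold change -1.72 ± 0.21, adjusted p = 1.82e-07). All 5 were also called lower under vehicle, with log2 fold changes of -3.39, -1.79, -1.77, -2.31 and -1.53. Tfcp2l1, another transcription factor, fell by 1.79 ± 0.43 log2 units under rapamycin with a vehicle effect of 0.48 ± 0.39 log2 units, adjusted p = 0.436. The call of its difference (-2.28 ± 0.58 log2 units, adjusted p = 0.0202) was lost without 3mTSCmKO replicate 4 (-1.82, adjusted p = 0.0627). It was also lost with same-numbered libraries fitted as blocks (-2.21, adjusted p = 0.0673).

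Rian, a long noncoding RNA of the imprinted Dlk1-Dio3 cluster on chromosome 12, was 43.8, 29.0, 45.0, 35.4 and 30.5 CPM in 3mCON+RM and 172, 173, 157, 217 and 138 CPM in 3mTSCmKO+RM. The groups were widely apart (log2 fold change 2.23 ± 0.29, adjusted p = 6.80e-07). Meg3 (log2 fold change 1.63 ± 0.29, adjusted p = 1.27e-04) and Mirg (log2 fold change 2.41 ± 0.41, adjusted p = 8.56e-05) of the same cluster, and H19 of the Igf2 locus on chromosome 7 (log2 fold change 1.55 ± 0.20, adjusted p = 4.34e-07), chosen after their values were seen, rose as well. Under vehicle the log2 fold changes were 3.13 for Rian, 1.99 for Meg3, 3.62 for Mirg and 1.34 for H19.

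Genes whose genotype effect differed between the treatments included those called under vehicle alone, those called under rapamycin alone and those called in opposite directions. Of the 8 with the smallest adjusted p for the difference, 6 had an effect under vehicle that was not called under rapamycin. Gpx3, a secreted glutathione peroxidase, was 211, 261, 281, 224 and 197 CPM in 3mCON+RM and 323, 195, 141, 178 and 229 CPM in 3mTSCmKO+RM. Those groups overlapped (-0.14 ± 0.22 log2 units, adjusted p = 0.805). In the vehicle groups it was 228, 233, 162, 295 and 251.3 CPM in 3mCON and 1679, 1527, 1508, 1694 and 2023 CPM in 3mTSCmKO. The knockout was about 7.21-fold higher there, and the difference was -2.99 ± 0.32 log2 units, adjusted p = 9.44e-08. Slc47a1, an organic cation exporter, was 32.3, 27.6, 28.2, 21.3 and 27.7 CPM in 3mCON+RM and 31.2, 39.5, 36.7, 42.0 and 32.9 CPM in 3mTSCmKO+RM. Under rapamycin 1 knockout library lay within the control range and 4 above it (0.42 ± 0.17 log2 units, adjusted p = 0.113). Without the drug it was 25.2, 25.7, 20.03, 29.1 and 26.4 CPM in 3mCON and 5.73, 4.44, 7.81, 7.81 and 8.60 CPM in 3mTSCmKO. There all knockout libraries were lower (-1.86 ± 0.18 log2 units), the difference being 2.28 ± 0.24 log2 units, adjusted p = 9.44e-08. For Tpx2, a spindle assembly factor, the effect was -0.28 ± 0.32 log2 units under rapamycin and 2.99 ± 0.29 log2 units under vehicle (difference -3.27 ± 0.43 log2 units, adjusted p = 6.02e-06). For Prune1 it was 0.08 ± 0.11 log2 units and 1.43 ± 0.11 log2 units (difference -1.35 ± 0.16 log2 units, adjusted p = 5.07e-07), and for Mrvi1, a target of cGMP-dependent kinase, 0.41 ± 0.17 log2 units and 2.50 ± 0.17 log2 units (difference -2.08 ± 0.23 log2 units, adjusted p = 2.62e-07). Pick1, a PDZ scaffold protein with a second overlapping gene entry of that name, had effects of 0.05 ± 0.09 log2 units and 0.97 ± 0.09 log2 units (difference -0.93 ± 0.12 log2 units, adjusted p = 6.02e-06), and its sign under rapamycin turned without 3mTSCmKO+RM replicate 2 (-0.0012). For Slc47a1 and Mrvi1 the effect under rapamycin was called when only the compared groups were fitted (adjusted p = 0.0134 and 0.0255).

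Asb4, a substrate receptor of a ubiquitin ligase, turned around. Under rapamycin it was 16.8, 16.5, 17.3, 18.8 and 19.1 CPM in 3mCON+RM and 14.9, 12.3, 9.87, 9.03 and 10.9 CPM in 3mTSCmKO+RM. All knockout values were below all controls (log2 fold change -0.64 ± 0.14, adjusted p = 0.00153). Under vehicle it was 23.8, 18.5, 21.4, 21.3 and 18.8 CPM in 3mCON and 41.4, 34.9, 36.1, 38.5 and 31.1 CPM in 3mTSCmKO, where all knockout values were above the controls (log2 fold change 0.81 ± 0.14, adjusted p = 2.06e-05). A total of 20 genes were called in opposite directions under the 2 treatments. Tceal7, Adamts20, a secreted metalloprotease, and Zranb1, a deubiquitinase, were further examples chosen after their values were seen. For Tceal7 the effect was 1.04 ± 0.24 log2 units under rapamycin and -1.33 ± 0.25 log2 units under vehicle (difference 2.37 ± 0.35 log2 units, adjusted p = 4.75e-05). For Adamts20 the effects were 1.13 ± 0.21 log2 units and -0.83 ± 0.22 log2 units (difference 1.96 ± 0.31 log2 units, adjusted p = 9.47e-05), and for Zranb1 -0.60 ± 0.15 log2 units and 0.71 ± 0.15 log2 units (difference -1.31 ± 0.21 log2 units, adjusted p = 1.04e-04). The groups under rapamycin overlapped for Tceal7 and Adamts20 and did not for Zranb1.

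Effects seen under rapamycin with a called difference included Rgcc, a cell cycle regulator. It was 20.5, 33.7, 10.1, 21.03 and 21.1 CPM in 3mCON+RM and 60.8, 89.4, 122, 146 and 118 CPM in 3mTSCmKO+RM. All knockout values exceeded the controls (log2 fold change 2.32 ± 0.29, adjusted p = 3.45e-07). Without the drug it was 15.1, 16.9, 26.1, 19.9 and 21.9 CPM in 3mCON and 19.7, 22.3, 20.97, 59.8 and 30.3 CPM in 3mTSCmKO. There the groups overlapped, and the difference was 1.70 ± 0.39 log2 units, adjusted p = 0.00911. Rcan1, an inhibitor of calcineurin and itself a calcineurin target, rose by 1.65 ± 0.25 log2 units, against 0.29 ± 0.24 log2 units under vehicle (difference 1.36 ± 0.34 log2 units, adjusted p = 0.0176), and the call of the difference was lost without 3mCON replicate 5 (1.07, adjusted p = 0.0570). Arvcf, a catenin of cell junctions, rose by 1.45 ± 0.14 log2 units, against 0.15 ± 0.14 log2 units under vehicle (difference 1.30 ± 0.20 log2 units, adjusted p = 8.32e-05). Prkag3, the AMPK subunit of fast glycolytic fibers, was 129.9, 129, 133, 154 and 142 CPM in 3mCON+RM and 89.5, 83.8, 59.9, 73.3 and 66.4 CPM in 3mTSCmKO+RM. The groups were apart (log2 fold change -0.88 ± 0.17, adjusted p = 2.98e-04), and the difference from the vehicle effect of 0.08 ± 0.16 log2 units was -0.96 ± 0.23 log2 units, adjusted p = 0.0138. Tbx15, a T-box transcription factor, fell by 0.64 ± 0.12 log2 units (vehicle 0.08 ± 0.12 log2 units, difference -0.72 ± 0.16 log2 units, adjusted p = 0.00733), and Eya1, a transcriptional cofactor of muscle development, by 1.31 ± 0.17 log2 units (vehicle -0.33 ± 0.17 log2 units, difference -0.98 ± 0.24 log2 units, adjusted p = 0.0141). Rilpl1 fell by 0.85 ± 0.12 log2 units (vehicle 0.30 ± 0.12 log2 units, difference -1.15 ± 0.17 log2 units, adjusted p = 2.98e-05). Rcan1, Arvcf, Prkag3, Tbx15, Eya1 and Rilpl1 were chosen after their values were seen.

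**Figure D5:**
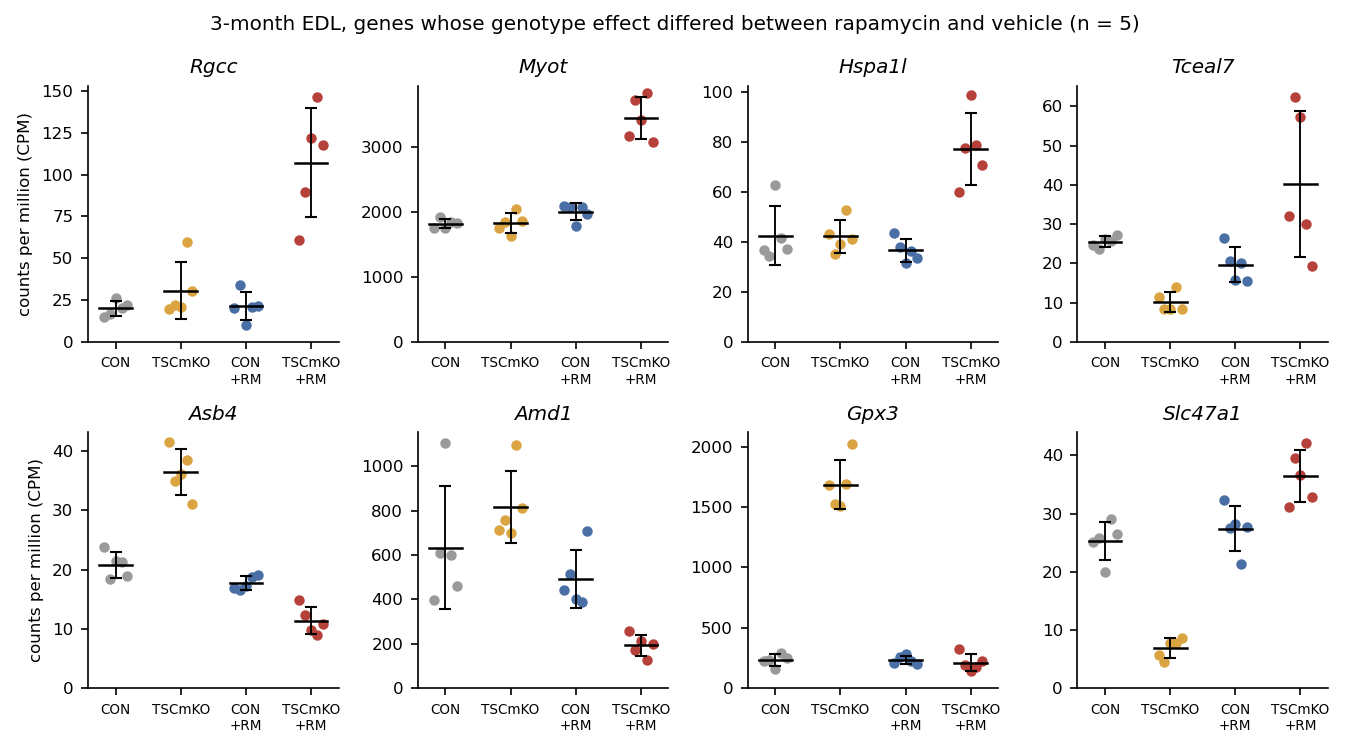
Level (CPM, linear axes from 0) of 8 genes in each of the 20 mice aged 3 months, with the mean and SD of each group of 5, for genes whose genotype effect differed between the treatments. Rgcc, Myot and Hspa1l are highest in 3mTSCmKO+RM, Tceal7 and Asb4 differ in opposite directions under the treatments, Amd1 is lowest in 3mTSCmKO+RM, and Gpx3 and Slc47a1 differ under vehicle.

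At 9 months, in separate mice with the same labelled schedule and dose, 2795 genes (20.6%) differed between the genotypes, 11.3% higher and 9.33% lower. The dose at 9 months is uncertain, because the study text gives another one. Library inserts differed as well. The shortest one recorded in the treated 9-month groups was 258 nucleotides (9mCON+RM), and the longest in the treated 3-month groups was 239 (3mTSCmKO+RM). Whether dose or library preparation had a part in differences between the ages was not tested. Which age had more calls depended on the fit, since with only the compared groups fitted 2495 genes were called at 3 months and 2112 at 9 months. Of the 768 genes higher at 3 months 575 were also higher at 9 months (74.9% of these and 37.6% of the 1531 higher at 9 months), and of the 591 lower genes 457 were also lower (77.3%, and 36.2% of 1264). None was called in the opposite direction. A test of the difference between the ages called 30 genes (0.222%), 22 with a higher (0.162%) and 8 with a lower value (0.0591%) at 9 months. That count fell to 16 without 9mTSCmKO+RM replicate 4, 17 without 9mCON+RM replicate 5 and 18 without 3mTSCmKO+RM replicate 2, and rose to 46 without 9mTSCmKO+RM replicate 1. Adamts8, a secreted metalloprotease among the 12 largest rises at 3 months, was 9.09, 4.36, 2.92, 4.70 and 6.22 CPM in 3mCON+RM and 14.3, 20.9, 23.0, 44.0 and 38.5 CPM in 3mTSCmKO+RM. It was higher in every knockout library at this age (log2 fold change 2.36 ± 0.34, adjusted p = 6.74e-06), whereas at 9 months the effect was -0.46 ± 0.35 log2 units, adjusted p = 0.392, and the difference between the ages was -2.82 ± 0.48 log2 units, adjusted p = 0.00351. For Mrvi1 the effect at 9 months was called (2.19 ± 0.17 log2 units, adjusted p = 1.99e-12), and that at 3 months was not (difference 1.78 ± 0.24 log2 units, adjusted p = 5.03e-05).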

How the data were processed

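EDL muscle mRNA was sequenced from 40 mice. Per the submitters' processing notes and the study's methods, reads were trimmed with cutadapt 1.9.1 and quantified on transcripts of GRCm38 with kallisto 0.43.1, and the authors deposited estimated counts and TPM summed per gene. Reads were assigned by strand, and a read on several transcripts was divided equally among them, which makes paralogs less certain. The methods name protein-coding transcripts as the reference, but 4781 of the genes in the table are not protein-coding. The deposited estimated counts are whole numbers and were tested with edgeR 4.0.16 (R 4.3.3, TMM, robust quasi-likelihood, 8 group means) for 13543 of 22844 genes with at least 1 CPM in at least 5 libraries, and p-values were adjusted by the Benjamini-Hochberg method. CPM values are TMM-scaled. Library depth was 8883870 counts or more in the compared groups, so precision is least for genes of few CPM. Marker sums were compared by exact permutation, also as TPM. Named genes were the 12 largest rises and falls (groups apart, 5 CPM or more on average), the 4 largest rises and falls in both treatments, the 8 most significant differences and list members. Some genes that this rule names are not reported here. The gene lists and members were chosen with earlier results of these data known. DESeq2 1.42.0 served as an alternative. Replicates were separate mice.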

Additional observations from a re-analysis of the deposited data

Results flagged for a closer look

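In groups of 5 libraries, the lowest or highest library was far from the other 4 in 15 of the 260 groups examined, where chance alone sets about 5% apart at the critical ratio of 0.71. In 3mCON+RM, replicate 2 stood apart for 5 of them. It held 235 CPM of Dkk3 (the other 4 held 101 to 138), 48.0 CPM of Trim63 (23.6 to 28.4) and 64.2 CPM of Hexa (50.2 to 53.9), and its summed markers were 933 CPM for fibroblasts (1780 to 2040) and 3.46 CPM for lymphocytes (7.64 to 9.09). Replicate 5 of that group held 11.2 CPM of Hdac9 (3.95 to 5.44), and replicate 1 held 44.4 CPM of Vars (57.8 to 63.0). In 3mTSCmKO+RM, replicate 4 held 22.2 CPM of Fbp2 (9.81 to 12.2), 6.75 CPM of Bmpr1b (2.73 to 3.85) and 65.0 CPM of Rilpl1 (92.8 to 104), and replicate 3 held 3.18 CPM of Neto2 (0.756 to 1.44) and 1790 CPM of Eef2 (2080 to 2190). The summed markers of that group were 1330 CPM for fibroblasts in replicate 1 (2130 to 2370), 1020 CPM for smooth muscle in replicate 5 (785 to 842) and 1600 CPM for red blood cells in replicate 2 (369 to 682).

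The test of the difference between the genotype effects under rapamycin and vehicle called 467 genes, and that between the ages under rapamycin 30. Among the named genes, the difference (rapamycin minus vehicle, log2 units) was negative, with a rise under vehicle, for Igfn1 (-1.94), Rasd2 (-1.98), Myl4 (-1.49), Mthfd2 (-1.41), Gpx3 (-2.99), Mrvi1 (-2.08), Prune1 (-1.35), Pick1 (-0.925), Tpx2 (-3.27), Fbxo32 (-1.36), Trim63 (-1.63) and Sesn1 (-1.07). It was negative with a fall under rapamycin for Tfrc (-1.77), Tfcp2l1 (-2.28), Akt2 (-0.498), Amd1 (-1.70), Eya1 (-0.979), Tbx15 (-0.718), Prkag3 (-0.960) and Rilpl1 (-1.15), and with opposite calls for Asb4 (-1.44), Sc5d (-0.833) and Zranb1 (-1.31). It was positive with a rise under rapamycin for Rgcc (1.70), Myot (0.779), Mybpc1 (0.903), Hspb6 (1.0), Hspa1l (1.09), Dnaja4 (0.889), Rcan1 (1.36) and Arvcf (1.30), with opposite calls for Adamts20 (1.96) and Tceal7 (2.37), and with a fall under vehicle for Aqp4 (3.23) and Slc47a1 (2.28). The difference between the ages (9 minus 3 months) was -2.82 log2 units for Adamts8 and 1.78 for Mrvi1.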

How the results depend on the processing

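The genotype effect under rapamycin was called for 1359 genes with all 40 libraries sharing 1 estimate of the spread, and for 2495 genes, 1276 of them the same, when only the 10 compared libraries were fitted. DESeq2 called 1542, upper-quartile scaling 1387, no filter on low counts 1085 and insert size as a term 1328. Leaving out 1 library gave 997 (without 3mTSCmKO+RM replicate 4) to 1217 genes, 2256 to 2481 under vehicle, 335 to 448 for the difference between treatments, 2269 to 2902 at 9 months and 16 to 46 for the difference between ages. Fitted on the compared groups alone, the difference between treatments was called for 1194 genes and that between ages for 46, while DESeq2 called 85 for the latter; the causes were not tested. Of the 1359 calls 786 (57.8%) were kept in all 10 fits that left out a library. Without 1 library the log2 fold change under rapamycin ran from -0.0012 (without 3mTSCmKO+RM replicate 2) to 0.10 for Pick1 and from -0.16 to 0.14 (without 3mCON+RM replicate 2, and 0.022 without 3mTSCmKO+RM replicate 5) for Trim63, so both turned sign, and neither was called.

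The labels give the groups the same replicate numbers, but same-numbered libraries did not deviate together: correlations of deviations from the group means were -0.236 to 0.287 between 3mCON+RM and 3mTSCmKO+RM, and 1 of 5 libraries correlated best with its own number. With the replicate block 1352 genes were called under rapamycin, 2715 under vehicle, 454 for the difference between treatments, 2854 at 9 months and 28 for the difference between ages. Among the named genes it ended the call of the difference between treatments for Igfn1 (-1.81, adjusted p = 0.0558) and Tfcp2l1 (-2.21, adjusted p = 0.0673).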
